A study of Mus musculus with 9 samples.

Results

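The accessibility of 8 genes of bone morphogenetic protein (BMP) signalling was followed during the reprogramming of mouse fibroblasts: the ligand gene Bmp4, the type I receptor gene Bmpr1a, the signal transducer genes Smad1 and Smad5, and the inhibitor of differentiation genes Id1, Id2, Id3 and Id4. They were chosen by name, as 8 of the 22367 protein-coding genes annotated on chromosomes 1 to 19, X and Y, and all 8 were found in the annotation. Each locus ran from 20 kb upstream of the transcription start site (TSS) to 20 kb past the end of the gene, with the promoter taken as the 3 kb before any annotated TSS. ATAC-Seq, in which the Tn5 transposase inserts adapters into open chromatin, gave 9 libraries, with 1 library per condition (no replicates). All were labelled as mouse embryonic fibroblasts (MEFs) by origin. According to the methods of the study the cells carried an Oct4-GFP reporter, and according to the labels reprogramming was induced with Sox2, Klf4, Oct4 and c-Myc from retroviruses, in feeder-free medium that held LIF, bFGF, CHIR99021 and ascorbic acid. The time course held D0, D3, Thy-1-negative cells of day 6 and day 9 (D6T- and D9T-), SSEA-1-positive cells of day 12 and day 16 (D12S+ and D16S+), and induced pluripotent stem cells (iPSCs). Thy-1 marks fibroblasts and SSEA-1 marks cells that approach pluripotency, so the sorted libraries hold a gated part of each culture. A further pair, also labelled as Thy-1-negative, came from day 6 and was given siRNA against histone H3.3 (D6 siH3.3) or non-targeting siRNA (D6 siNT) before induction. The depletion of H3.3 itself cannot be checked in accessibility data.

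BMP ligands bind a complex of type I and type II receptors, whose kinase activity phosphorylates Smad1 and Smad5 (and the related Smad9). These then join Smad4 and enter the nucleus. The Id genes are the best known direct targets of this route. Their products lack a DNA-binding domain and hold E proteins away from DNA, which keeps differentiation genes silent. In mouse embryonic stem cells BMP4 together with LIF sustains self-renewal, and Id proteins can stand in for BMP there. Smad1 and Smad5 bind GC-rich sites such as GGCGCC, and Smad4 binds GTCT. Enhancers of Id genes are known for a composite of both sites at a fixed spacing.

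Accessibility was measured as pileup, meaning how many tags, each extended to 200 bp, covered the summit of a peak, scaled to 1000000 tags of the library (CPM). It is read at a single position, so the length of a gene does not enter. Intervals are exact Poisson intervals for a level and exact conditional binomial intervals for a ratio, at the 95% level, and they cover counting error only. In a bulk library, fewer cells with an open site and a less open site in each cell cannot be told apart. The libraries held 13213117 (D9T-) to 31714845 (D0) tags and 36708 (D9T-) to 133132 (D6T-) regions. The lowest level called lay between 0.331 CPM (D3) and 0.530 CPM (D9T-), and openings below it were not detectable. The general level also differed between libraries: over the 9818 protein-coding genes with a promoter region in every library, the median promoter level was 0.946 CPM at D0, 2.28 CPM at D3 and 3.83 CPM at D6T-. It was 1.51 CPM at D9T-, 2.44 CPM in D12S+, 2.31 CPM at D16S+ and 1.20 CPM in iPSCs, and 1.45 and 1.38 CPM in D6 siH3.3 and D6 siNT. Because of this, levels are also given after division by that median, or as the percentile within the library among the genes with a promoter region. Of 7 pluripotent markers, Nanog, Zfp42 and Dppa5a had promoter regions in iPSCs, D16S+ and D12S+ alone. Sall4, Tdh and Esrrb also had one at D6T-, with Tdh and Esrrb at D3 and Esrrb at D0 too. Pou5f1, which encodes Oct4, had one in all 9 libraries at 9.37 to 26.3 CPM. Oct4 was also delivered by retrovirus, and whether tags from those copies add to the Pou5f1 level was not tested. Of 7 fibroblast markers, Col1a1 and Twist1 were open in all 9 libraries, iPSCs included, and Thy1 and Pdgfrb were called both at D0 and in iPSCs. Col1a2 was called at D0 and not in iPSCs, while Col3a1 and Prrx1 were called in neither. The iPSC level over the D0 level was 0.67 at Twist1, 0.62 at Pdgfrb, 1.15 at Col1a1 and 1.19 at Thy1. The endothelial markers Cdh5, Pecam1 and Tek were open at D0, D3 and D6T- and in 1 or more later libraries, the epithelial markers Cdh1 and Epcam at D12S+, D16S+ and in iPSCs (Cdh1 also at D3), and the blood markers Ptprc and Spi1 in no library. Open promoters thus did not follow the labels at every marker. The promoter of Thy1, the gene of the sorting marker, had a region at D0, D3, D12S+, D16S+ and in iPSCs and in none of the 4 Thy-1-negative libraries.

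Open regions with the composite of GGCGCC and GTCT set 5 bases apart were found at 3 of the 4 Id genes. The search covered 300 bp around the highest summit of each region, on both strands. The composite was present in 4 of the 93 regions at the 8 loci (4.30%) and in 54 of the 210150 regions of all libraries (0.0257%). Of the 12307 regions called in all 9 libraries, 13 (0.106%) held it. Among the 520 regions at the loci of 30 other genes of the pathway, 0 held it. With a share as low as 0.0257% over all regions, 0 of 520 does not set those loci apart. The composite was searched because enhancers of Id genes are known for it, so its presence at Id genes is not an independent finding. The 4 regions are shown because they carry this pattern, read in the direction of the gene from the mm9 genome. The composite, with the 5 bases between its parts, is in capitals, as are the other matches to the letters searched (GGCGCC alone, GGAGCC or its complement GGCTCC, and the E-box CACGTG).
Id1, 3.32 kb downstream of the TSS, intergenic, chr2:152565159-152565458, plus strand: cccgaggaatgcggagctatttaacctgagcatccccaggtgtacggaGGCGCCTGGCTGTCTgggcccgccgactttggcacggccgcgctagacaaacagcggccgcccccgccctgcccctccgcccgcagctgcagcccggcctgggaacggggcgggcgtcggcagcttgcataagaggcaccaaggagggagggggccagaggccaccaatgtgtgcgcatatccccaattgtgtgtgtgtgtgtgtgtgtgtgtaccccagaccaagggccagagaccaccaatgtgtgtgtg
Id2, 2.81 kb upstream of the TSS, intergenic, chr12:25783612-25783911, minus strand: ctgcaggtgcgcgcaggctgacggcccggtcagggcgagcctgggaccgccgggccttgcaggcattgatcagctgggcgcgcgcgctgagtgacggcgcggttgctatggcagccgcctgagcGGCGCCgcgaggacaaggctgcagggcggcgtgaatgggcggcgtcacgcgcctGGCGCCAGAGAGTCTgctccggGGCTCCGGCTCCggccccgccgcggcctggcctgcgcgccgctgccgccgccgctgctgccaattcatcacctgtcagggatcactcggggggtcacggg
Id3, 3.01 kb upstream of the TSS, intergenic, chr4:135696253-135696552, plus strand: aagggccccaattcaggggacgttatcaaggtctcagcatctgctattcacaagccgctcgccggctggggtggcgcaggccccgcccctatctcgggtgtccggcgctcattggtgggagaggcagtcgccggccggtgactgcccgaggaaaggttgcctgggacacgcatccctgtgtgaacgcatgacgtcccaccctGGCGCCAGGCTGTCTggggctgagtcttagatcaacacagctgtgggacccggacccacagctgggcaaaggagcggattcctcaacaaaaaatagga
Id3, 4.43 kb downstream of the TSS, past the end of the gene, chr4:135703695-135703994, plus strand: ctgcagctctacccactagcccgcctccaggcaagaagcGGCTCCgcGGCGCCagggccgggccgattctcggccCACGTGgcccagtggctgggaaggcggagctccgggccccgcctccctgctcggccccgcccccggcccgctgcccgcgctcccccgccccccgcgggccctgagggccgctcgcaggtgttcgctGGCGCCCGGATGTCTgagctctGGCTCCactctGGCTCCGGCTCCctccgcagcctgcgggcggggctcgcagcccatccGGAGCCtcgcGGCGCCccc

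The 3 regions at Id2 and Id3 were open in all 9 libraries and the one at Id1 in 8. Downstream of Id1, the composite region stood at 0.662 CPM at D0 and at D3, 1.31 CPM at D6T-, 0.833 CPM at D9T-, 1.25 CPM in D12S+ and 0.756 CPM at D16S+, and it was not called in iPSCs, where the lowest level called was 0.376 CPM. Upstream of Id2, it stood at 1.29 CPM at D0, 2.65 CPM at D3, 4.39 CPM at D6T-, 1.14 CPM at D9T-, 2.73 CPM in D12S+, 2.46 CPM at D16S+ and 0.828 CPM in iPSCs. The iPSC level of the Id2 region over its D0 level was 0.640, with an interval of 0.363 to 1.10. Both ends of the course lay below D3 and D6T- in CPM, where the general level of each library enters. After division by the promoter median, the ratio of this region over D0 was 0.848 at D3 and 0.503 in iPSCs. At Id3, the upstream region had 0.599 CPM at D0, 1.49 CPM at D3, 3.55 CPM at D6T-, 0.833 CPM at D9T-, 1.59 CPM in D12S+, 1.23 CPM at D16S+ and 1.09 CPM in iPSCs. The downstream region of Id3 was flatter in CPM. It had 0.725 CPM at D0, 1.06 CPM at D3, 1.59 CPM at D6T- and 0.833 CPM at D9T-. Later it had 1.25 CPM in D12S+, 1.51 CPM at D16S+ and 0.978 CPM in iPSCs. After division by the promoter median, its ratio over D0 was 0.605 at D3 and 1.06 in iPSCs. In D6 siH3.3 and D6 siNT, the region of Id1 had 1.12 and 0.689 CPM, that of Id2 1.12 and 1.33 CPM, and those of Id3 1.18 and 1.29 CPM upstream and 0.643 and 0.826 CPM downstream. Every one of the 4 was highest at D6T-, the library with the highest general level. The GC content of the 4 windows was between 62.3% and 78.7%.

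The other sequences searched were at shares nearer to those of all regions. GGCGCC alone lay in 18 of the 93 regions (19.4%), against 4.57% of all regions and 23.0% of the regions called in all 9 libraries. GGAGCC lay in 29 regions (31.2%, against 24.4% of all regions). The AP-1 site TGACTCA lay in 18 regions (19.4%, against 22.4% of all regions), the E-box CACGTG in 8 (8.60%, against 5.28%) and the Klf site CCACACCC in 4 (4.30%, against 4.97%). The octamer ATGCAAAT, the site of Oct factors, was in 0 of the 93 windows and in 2.29% of all. A match describes letters in these windows and does not show binding.

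At the 8 loci, 93 regions were open in at least 1 library: 15 promoter regions, 24 in gene bodies, 25 upstream and 29 downstream. The number per library was 32 at D0 and at D12S+, 41 at D3, 64 at D6T-, 18 at D9T-, 35 at D16S+ and 40 in iPSCs, and D6T- and D9T- also had the most and the fewest regions genome-wide. Of the 93, 11 (11.8%) were called in all 9 libraries, against 5.86% of all 210151 regions, and 10 of those 11 were promoter regions. The loci were set around genes, and the share of promoter regions among all regions was not counted. By position, 10 of 15 promoter regions, 0 of 25 upstream, 0 of 24 in gene bodies and 1 of 29 downstream were called in all 9. Of the 93, 40 (43.0%) were called in 1 library alone, against 46.5% of all regions. Regions called in iPSCs and not at D0 numbered 24 (25.8%, against 17% of all regions), and those called at D0 and not in iPSCs numbered 16 (17.2%, against 26.4%). Of the former, 8 were at Id1 and 4 at Bmp4. Of the latter, 5 were at Smad5. Where a region described here overlaps another annotated gene, that gene is named.

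**Figure D1:**
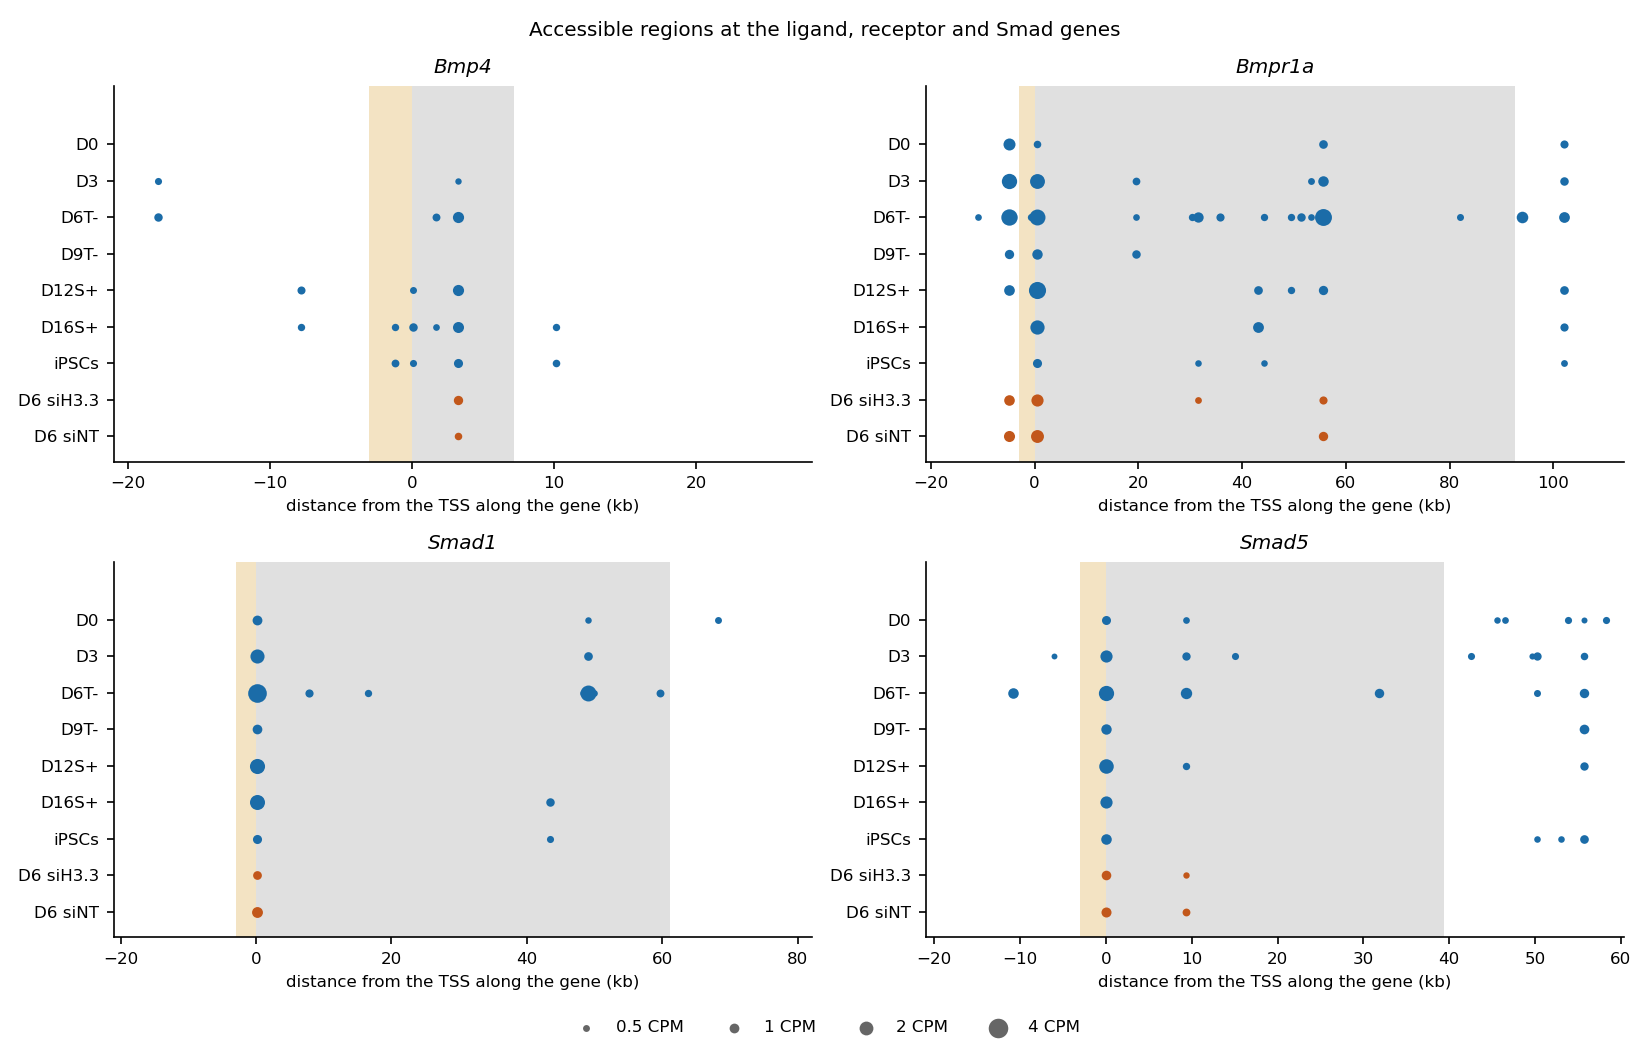
Accessible regions at Bmp4, Bmpr1a, Smad1 and Smad5 in each library (rows), plotted by the distance of the highest summit from the TSS in kb, with the area of a point set by the level in CPM. The gene body is grey and the promoter tan, time-course libraries are blue and siRNA libraries orange. At Bmp4 the promoter was open at D12S+, D16S+ and in iPSCs only, whereas the promoters of the other 3 genes were open in all 9 libraries.

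Bmp4 encodes the ligand. Its locus (chr14:47003195-47010344, minus strand, with 20 kb on each side) held 7 regions, of which 0 were called at D0 or D9T-, 2 at D3, 3 at D6T-, 3 at D12S+, 4 in iPSCs and 6 at D16S+. The region at the TSS was at 0.511 CPM at D12S+ (0.234 to 0.970), 0.756 CPM at D16S+ (0.432 to 1.23) and 0.527 CPM in iPSCs, from 9, 16 and 14 tags. In iPSCs the highest promoter region was a separate one 1.18 kb upstream, at 0.640 CPM (0.373 to 1.02) from 17 tags. No promoter region was called in the other 6 libraries. The highest levels of the 3 libraries overlap in their intervals and lie low in their libraries, between percentile 0.798 (D12S+) and percentile 16.2 (iPSCs). When the weaker 50% of peaks were dropped, the promoter region was left in iPSCs alone. A promoter opened in these 3 libraries and in no other was found for 94 of the 22367 protein-coding genes (0.42%). The lowest level called was 0.530 CPM at D9T-, above the level of D12S+, so a promoter as open as that of D12S+ would not have been called at D9T-. At D0, D3 and D6T- the lowest levels called were 0.347, 0.331 and 0.374 CPM, below the promoter levels of D12S+, D16S+ and iPSCs. Divided by the promoter median, however, the lowest level called was 0.367 at D0, 0.145 at D3 and 0.0976 at D6T-, whereas the Bmp4 promoter was at 0.209 in D12S+, 0.327 at D16S+ and 0.531 in iPSCs. On that scale the levels of D12S+ and D16S+ would not have been called at D0.

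In an intron of Bmp4 lay the most often open region of the locus, 3.24 kb past the TSS. It also overlaps the antisense gene Gm15222. The region was open at 0.430 CPM at D3, 1.31 CPM at D6T-, 1.31 CPM at D12S+, 1.28 CPM at D16S+ and 0.865 CPM in iPSCs, and was not called at D0 or D9T-. It was therefore called at D3 and D6T-, where no promoter region was. Beside the region at the TSS, the promoter region 1.18 kb upstream of the TSS (0.567 CPM at D16S+) was called in late libraries alone. So were one 7.85 kb upstream (0.681 CPM at D12S+ and 0.567 CPM at D16S+) and one 10.1 kb downstream of the TSS (0.567 CPM at D16S+ and 0.602 CPM in iPSCs), the last within Gm15217. The summit of the intronic region is shown because it is the one Bmp4 site open in both siRNA libraries, with an E-box and the complement of GGAGCC in capitals.
Bmp4, 3.24 kb past the TSS, chr14:47006956-47007252, minus strand: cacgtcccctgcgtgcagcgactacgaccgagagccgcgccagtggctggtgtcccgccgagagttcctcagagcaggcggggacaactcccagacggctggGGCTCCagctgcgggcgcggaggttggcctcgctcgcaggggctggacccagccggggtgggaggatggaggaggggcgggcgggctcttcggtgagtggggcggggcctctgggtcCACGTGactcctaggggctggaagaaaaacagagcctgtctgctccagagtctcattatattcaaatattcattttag

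Bmpr1a encodes a type I receptor that binds BMP4. Its gene is 92.6 kb long (chr14:35223920-35316527, minus strand), and its locus held 18 regions, 17 of which were called at D6T- and 8 of which were called in 1 library alone. A region 5.03 kb upstream of the TSS was at 1.51 CPM at D0, 2.45 CPM at D3, 2.81 CPM at D6T-, 0.908 CPM at D9T- and 1.19 CPM at D12S+, and was not called at D16S+ or in iPSCs. At D0 it was higher than the promoter (0.599 CPM). Another region of the same kind, 55.5 kb into the gene over an exon, was at 0.788 CPM at D0, 1.16 CPM at D3, 2.99 CPM at D6T- and 0.908 CPM at D12S+, and was not called at D9T-, D16S+ or in iPSCs. By contrast, an intronic region 43.1 kb past the TSS was called at D12S+ (0.795 CPM) and D16S+ (1.23 CPM) alone. The upstream region is shown because it was below detection at D16S+ and in iPSCs, with its AP-1 site (as the complement TGAGTCA) and the complement of GGAGCC in capitals.
Bmpr1a, 5.03 kb upstream of the TSS, intergenic, chr14:35321405-35321704, minus strand: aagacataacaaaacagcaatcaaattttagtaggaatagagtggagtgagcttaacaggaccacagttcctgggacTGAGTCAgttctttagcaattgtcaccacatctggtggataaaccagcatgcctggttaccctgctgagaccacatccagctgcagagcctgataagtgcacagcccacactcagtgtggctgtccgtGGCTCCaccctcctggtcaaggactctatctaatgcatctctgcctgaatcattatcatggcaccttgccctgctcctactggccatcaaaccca

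Smad1 and Smad5 encode the transducers that the receptor activates. At Smad1 (chr8:81862294-81923417, minus strand) 9 regions were called, 6 of them in 1 library alone. The one away from the promoter that was open in the most libraries lay in an intron 49.1 kb past the TSS, at 0.441 CPM at D0, 0.794 CPM at D3 and 2.67 CPM at D6T-, and was called in no other library. A different intronic region, 43.4 kb past the TSS, was called at D16S+ (0.756 CPM) and in iPSCs (0.527 CPM) alone. Smad5 (chr13:56804371-56843738, plus strand) had 15 regions, 11 of them called in 1 library alone. An intronic region 9.32 kb past its TSS was at 0.473 CPM at D0, 0.728 CPM at D3, 1.36 CPM at D6T- and 0.568 CPM at D12S+, and was not called at D9T-, D16S+ or in iPSCs. Of the 5 Smad5 regions called at D0 and not in iPSCs, 4 lay past the end of the gene at 0.441 to 0.536 CPM and were called at D0 alone, where the lowest level called was 0.347 CPM.

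**Figure D2:**
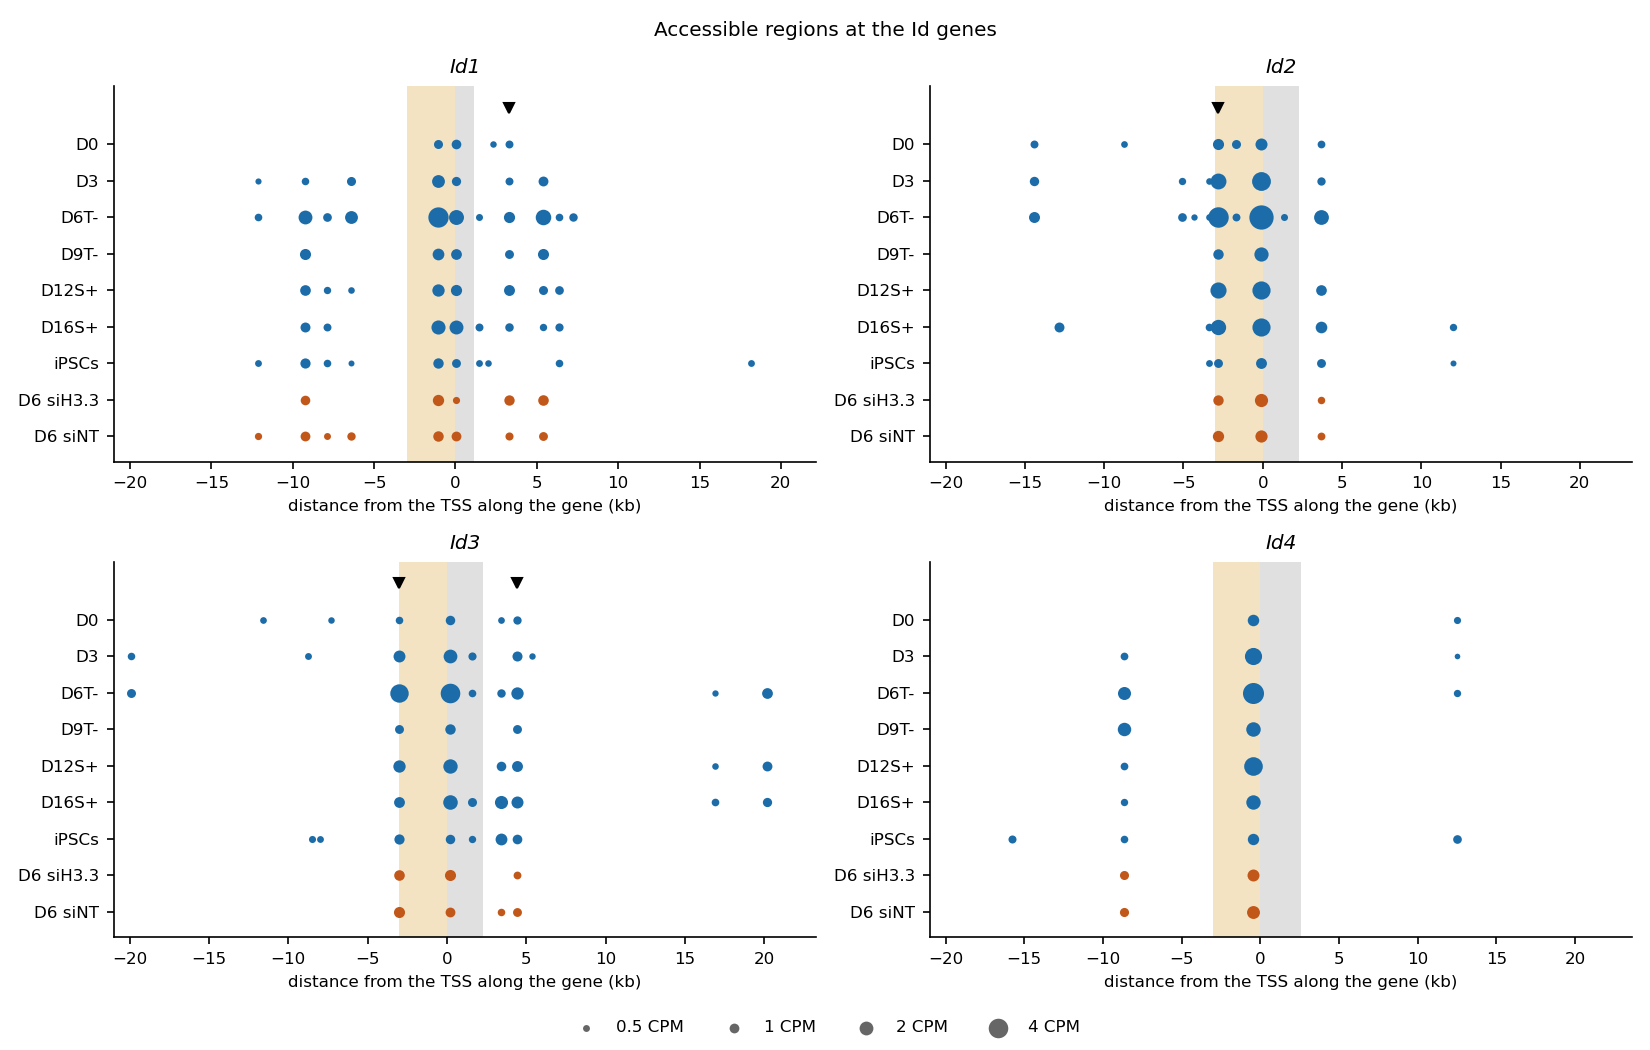
Accessible regions at Id1, Id2, Id3 and Id4 in each library (rows), plotted by the distance of the highest summit from the TSS in kb, with the area of a point set by the level in CPM. The gene body is grey, the promoter tan, and black triangles mark the 4 regions with the composite of GGCGCC and GTCT. A promoter region stood in all 9 libraries at each gene, and the flanks of Id1 held more regions from D3 on than at D0.

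Id1 is a short gene (1.16 kb, chr2:152561987-152563146, plus strand) with 14 regions at its locus, 4 at D0, 7 at D3, 11 at D6T-, 5 at D9T-, 8 each at D12S+ and D16S+ and 10 in iPSCs. A region 9.22 kb upstream was not called at D0 and was at 0.595 CPM at D3, 2.01 CPM at D6T-, 1.29 CPM at D9T-, 1.19 CPM in D12S+, 1.04 CPM at D16S+ and 1.09 CPM in iPSCs. On the other side, a region 5.39 kb downstream of the TSS was at 1.03 CPM at D3, 2.52 CPM at D6T-, 1.29 CPM at D9T-, 0.852 CPM in D12S+ and 0.567 CPM at D16S+, and was called neither at D0 nor in iPSCs. So the upstream region was still called in iPSCs while the downstream one was not. The strongest promoter site lay 1.06 kb upstream of the TSS in 8 of the 9 libraries. It had 0.851 CPM at D0, 1.72 CPM at D3, 4.30 CPM at D6T-, 1.44 CPM at D9T-, 1.59 CPM in D12S+, 2.08 CPM at D16S+ and 1.13 CPM in iPSCs. At D0 the site at the TSS itself was higher, at 0.978 CPM. The upstream promoter site is shown because it was the strongest of the gene, with its GGCGCC in capitals. It does not hold the exact composite.
Id1, 1.06 kb upstream of the TSS, intergenic, chr2:152560776-152561075, plus strand: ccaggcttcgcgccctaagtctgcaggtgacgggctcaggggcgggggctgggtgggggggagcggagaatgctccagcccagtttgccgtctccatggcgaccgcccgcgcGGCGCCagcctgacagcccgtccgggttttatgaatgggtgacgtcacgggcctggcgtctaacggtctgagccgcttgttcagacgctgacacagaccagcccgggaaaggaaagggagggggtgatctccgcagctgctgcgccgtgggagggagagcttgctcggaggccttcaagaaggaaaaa

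Id2 (chr12:25778666-25780957, minus strand) had 12 regions. Its TSS region reached the highest level at the 8 loci, at D6T-. It stood at 1.51 CPM at D0, 3.71 CPM at D3, 6.17 CPM at D6T-, 2.12 CPM at D9T-, 3.46 CPM in D12S+, 3.45 CPM at D16S+ and 1.24 CPM in iPSCs. In single libraries other regions were level with it or higher: the Bmpr1a region 5.03 kb upstream had the same level at D0, the Id4 promoter was higher at D9T- and in D12S+, and the Id3 region 3.39 kb past the TSS and the Id4 promoter were higher in iPSCs, as were the Bmpr1a and Id4 promoters in D6 siNT. A region 14.4 kb upstream was called in the early libraries alone, at 0.662 CPM at D0, 0.926 CPM at D3 and 1.26 CPM at D6T-. Downstream, 3.66 kb past the TSS, a region was at 0.631 CPM at D0, 0.728 CPM at D3, 2.29 CPM at D6T-, 1.19 CPM at D12S+, 1.42 CPM at D16S+ and 0.828 CPM in iPSCs, and was not called at D9T-. A distal site that was called early and not later thus stood beside promoter sites open throughout.

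Id3 (chr4:135699412-135701670, plus strand) had 14 regions, 3 of them open in all 9 libraries, the most of the 8 genes. Beside the composite regions and the TSS, a region 3.39 kb past the TSS was at 0.473 CPM at D0, 0.748 CPM at D6T-, 0.965 CPM at D12S+, 1.80 CPM at D16S+ and 1.47 CPM in iPSCs, and was not called at D3 or D9T-. Its iPSC level over its D0 level was 3.10 (1.67 to 6.06). Of the 16 regions at the 8 loci called in both libraries, it was the one whose interval excluded 1. Id4 (chr13:48356796-48359405, plus strand) had 4 regions, the fewest of the 8 loci. All 4 overlap other annotated transcripts, 3 of them the non-coding A330033J07Rik and the one 12.5 kb downstream of the TSS A330048O09Rik. The region 8.65 kb upstream was not called at D0 and was at 0.628 CPM at D3, 1.78 CPM at D6T-, 1.89 CPM at D9T-, 0.625 CPM in D12S+, 0.567 CPM at D16S+ and 0.602 CPM in iPSCs. It was 1 of 3 regions at the 8 loci that had a higher CPM at D9T- than at D6T-.

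**Figure D3:**
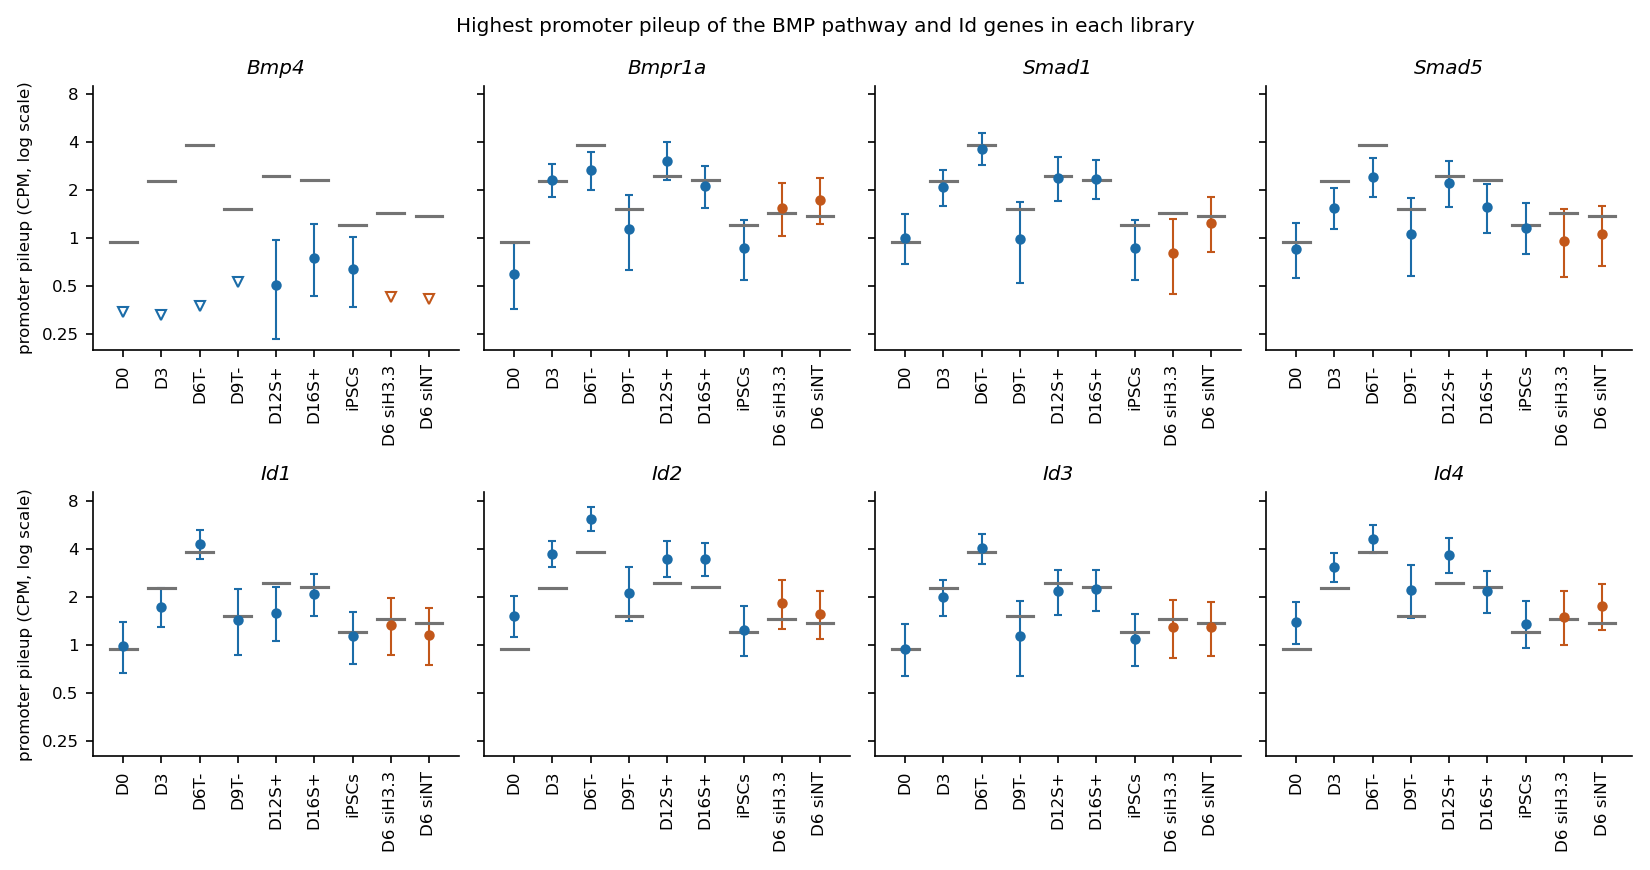
Highest promoter pileup of each gene in CPM (log scale) in the 9 libraries, with 95% Poisson intervals for counting error. Grey bars give the median promoter level of the library, open triangles the lowest level called where no promoter region was found, and siRNA libraries are orange. The promoters of the 7 genes other than Bmp4 broadly followed the grey bars, highest at D6T- for 6 of them. Divided by the bar, they lay between 0.556 (Smad1 in D6 siH3.3) and 1.62 (Id2 at D3). Between successive libraries of the course, the scaled interval excluded 1 at Bmpr1a and Id1 for D6T- over D3, with 0.685 (0.474 to 0.986) and 1.49 (1.05 to 2.13). It also did at Id4 for D16S+ over D12S+, with 0.631 (0.422 to 0.936).

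A promoter region was found for 7 of the 8 genes in all 9 libraries, against 43.9% of all protein-coding genes. By library, 7 of 8 had one at D0 (against 58% of genes), D3 (67.8%), D6T- (68.3%) and D9T- (50.4%), and 8 of 8 at D12S+ (63%), D16S+ (63%) and in iPSCs (63.9%). In D6 siH3.3 and D6 siNT it was 7 of 8 (54.3% and 54.8% of genes). The gene without one was Bmp4 in each case.

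The level of a promoter is that of its highest region in the library, which was not always the same region. At Id1 it was the region at the TSS at D0 and the one 1.06 kb upstream elsewhere, and at Id3 the region 3.01 kb upstream in iPSCs and D6 siNT and the one at the TSS elsewhere. Among the 7 genes other than Bmp4, Bmpr1a had the widest range relative to its lowest level. Its promoter region, which also overlaps Gm17110, was at 0.599 CPM at D0, 2.32 CPM at D3, 2.67 CPM at D6T-, 1.14 CPM at D9T-, 3.07 CPM in D12S+, 2.13 CPM at D16S+ and 0.865 CPM in iPSCs. The order was D12S+, D6T-, D3, D16S+, D9T-, iPSCs and D0, and of the 6 neighbouring pairs in this order only D16S+ and D9T- differed beyond counting error. Smad1 had 1.01 CPM at D0, 2.08 CPM at D3, 3.65 CPM at D6T-, 0.984 CPM at D9T-, 2.38 CPM in D12S+, 2.36 CPM at D16S+ and 0.865 CPM in iPSCs, and Smad5 had 0.851, 1.55, 2.43, 1.06, 2.21, 1.56 and 1.17 CPM in the same libraries. For Smad1, D6T- stood apart in CPM from the next library, D12S+, and D3 from D0. After division by the promoter median, Smad1 was at 0.951 at D6T- and 0.977 in D12S+. On that scale it was at 0.913 at D3 and 1.07 at D0. For Smad5 0 of the 6 neighbouring pairs were apart. These orders and pairs are of CPM, so the general level of each library enters them.

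Id1 ranged from 0.978 CPM (D0) to 4.30 CPM (D6T-) and Id3 from 0.946 CPM (D0) to 4.02 CPM (D6T-), and in both D6T- was apart from the next library, D16S+. The Id3 promoter was at 1.98 CPM at D3, 1.14 CPM at D9T-, 2.16 CPM in D12S+, 2.22 CPM at D16S+ and 1.09 CPM in iPSCs. Id4 had 1.39 CPM at D0, 3.08 CPM at D3, 4.63 CPM at D6T-, 2.19 CPM at D9T-, 3.63 CPM in D12S+, 2.17 CPM at D16S+ and 1.35 CPM in iPSCs. For Id4, D16S+ was apart from the next library, D0. Id2 was the highest of the 8 promoters at D0, D3, D6T- and D16S+, and Id4 at D9T-, D12S+ and in iPSCs. In Id2, D6T- was apart from D3, and D16S+ from D9T-. These pairs too were compared in CPM. After division by the promoter median, Id2 was at 1.61 at D6T- and 1.62 at D3, and at 1.49 at D16S+ and 1.4 at D9T-. On that scale Id4 was at 0.939 at D16S+ and 1.47 at D0. D6T- and D16S+ were then at 1.12 and 0.898 for Id1, and at 1.05 and 0.959 for Id3.

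**Figure D4:**
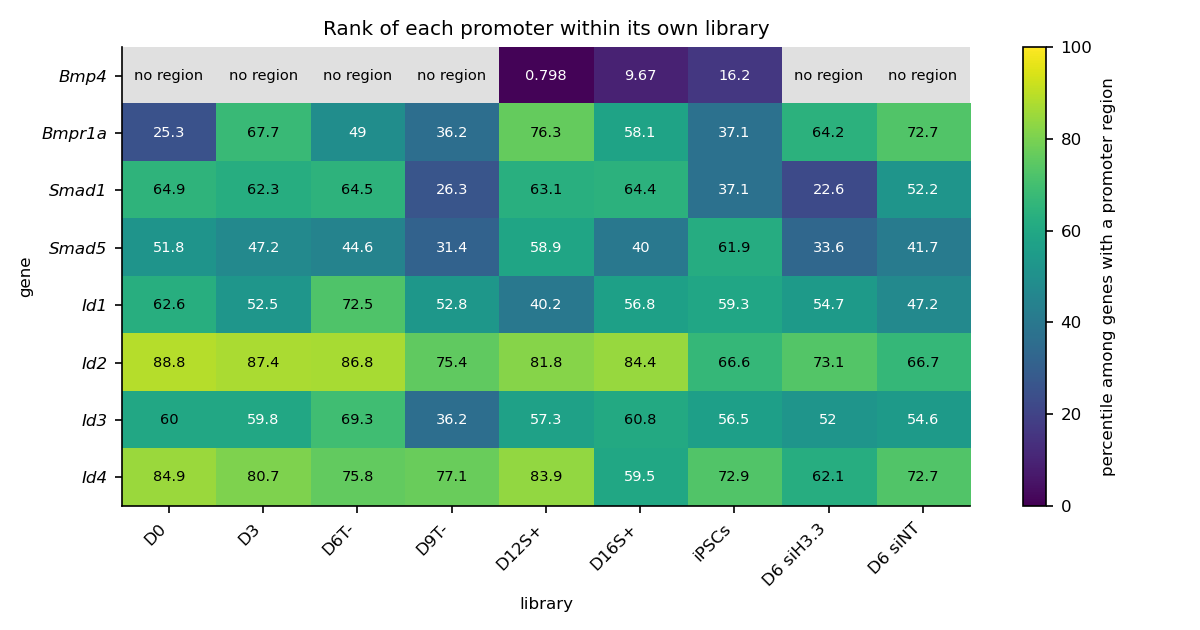
Percentile of each promoter among the genes with a promoter region in the same library, with grey cells where no region was called. Id2 lay at percentile 66.6 or above in every library and Id4 at 59.5 or above, whereas Bmp4 reached 16.2 at most.

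Ranks within a library take out a shift common to all its promoters. They were taken among the genes with a promoter region there, from 11281 genes at D9T- to 15270 at D6T-. Promoters that were not called do not enter, so the ranks also depend on that number. Id2 lay between percentile 66.6 (iPSCs) and 88.8 (D0) with a median over the libraries of 81.8, and Id4 between 59.5 (D16S+) and 84.9 (D0) with a median of 75.8. Id1 ran from 40.2 (D12S+) to 72.5 (D6T-) and Id3 from 36.2 (D9T-) to 69.3 (D6T-). The spread was wider at Bmpr1a, from 25.3 (D0) to 76.3 (D12S+), and at Smad1, from 22.6 (D6 siH3.3) to 64.9 (D0). Smad5 ran from percentile 31.4 (D9T-) to 61.9 (iPSCs). Divided by the promoter median, however, Smad5 was lowest at D6T-, at 0.634, against 0.7 at D9T-. The percentiles of Id2 and Id4 were therefore among the higher ranks in most libraries. Bmp4 lay lowest, between percentile 0.798 and 16.2 in the 3 libraries where its promoter was open.

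**Figure D5:**
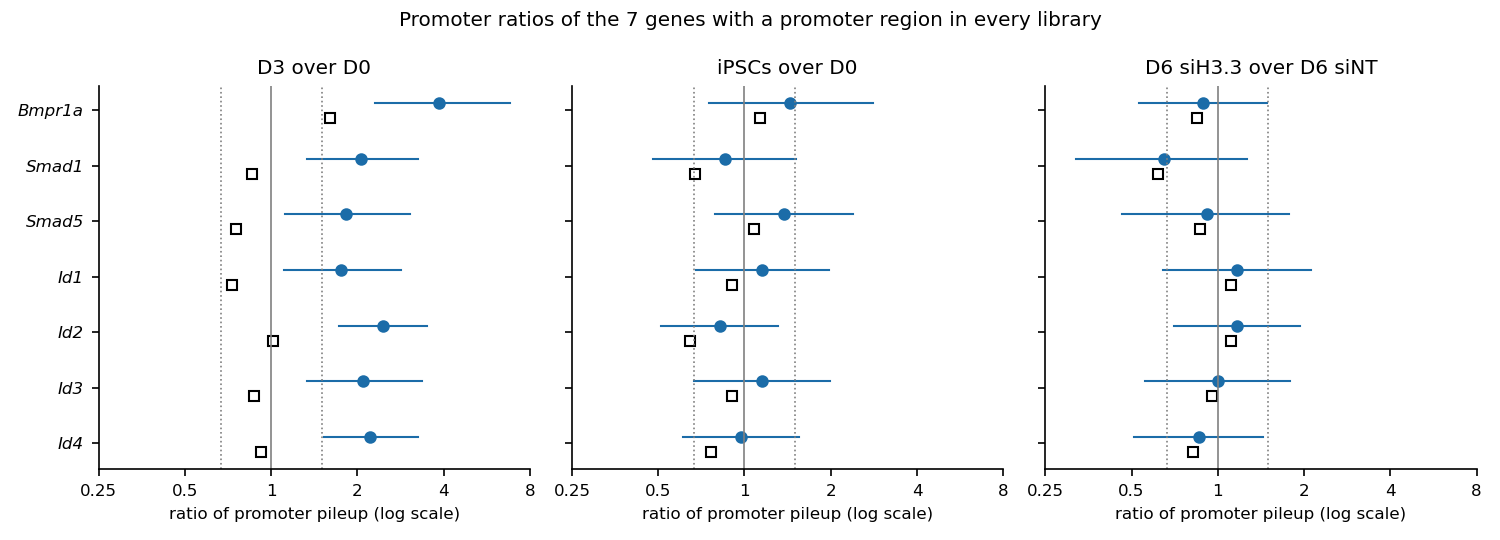
Ratio of promoter pileup in CPM (filled points, log scale, with 95% intervals for counting error) for the 7 genes with a promoter region in every library, in 3 comparisons. Open squares give the same ratio after division by the promoter median of each library, the solid line marks 1 and dotted lines mark 1.5-fold in either direction. The D3 points all lie past 1.5-fold while 6 of their 7 squares lie within it, and no interval of the other 2 comparisons excludes 1. The Id1 points of D3 and iPSCs over D0, and the Id3 points of iPSCs over D0 and of the siRNA pair, set different promoter regions against each other.

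From D0 to D3 all 7 promoters were at least 1.5-fold higher, as were 81.5% of the protein-coding genes with a promoter region in both libraries (0.763% were lower). The ratios ran from 1.76 at Id1 (1.11 to 2.84) to 3.87 at Bmpr1a (2.30 to 6.80), with a median of 2.1 against 2.26 over all genes. After division by the promoter median, 1 of the 7 stayed at 1.5-fold or more, Bmpr1a at 1.60 (0.954 to 2.82), against 8.18% of genes higher and 22.3% lower. Smad1, Smad5, Id1, Id3 and Id4 then lay below 1, between 0.729 (Id1) and 0.919 (Id4), and Id2 at 1.01. No scaled interval of these 7 ratios excluded 1. The Id1 ratio set the region 1.06 kb upstream at D3 against the one at the TSS at D0. Region by region, the upstream one was 2.02-fold higher at D3 (1.25 to 3.35), whereas the one at the TSS went from 0.978 to 0.893 CPM, a ratio of 0.914 (0.525 to 1.58), or 0.379 after division by the median. The upper limit of the TSS region lay below the ratio of the promoter medians, 2.41, so its scaled interval lay below 1. Of the 10 promoter regions called in both libraries, 9 were at least 1.5-fold higher and 0 were lower, and 1 was higher and 1 lower after that division.

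Between D0 and iPSCs the highest promoter level was 1.5-fold apart in either direction for 0 of the 7 genes, while 31.6% of all genes were higher and 4.16% lower in iPSCs. The ratios of iPSCs over D0 lay between 0.820 (Id2, 0.510 to 1.30) and 1.44 (Bmpr1a, 0.752 to 2.80). Their median was 1.15, against 1.26 for all genes. After division by the promoter median, Id2 was lower in iPSCs at 0.645 (0.401 to 1.02) and 0 were higher, against 13% and 12.9% of genes. At Id1 and Id3 these ratios set different regions against each other. Region by region, 1 of the 10 promoter regions called in both libraries was at least 1.5-fold higher in iPSCs, the composite region 3.01 kb upstream of Id3 at 1.82 (0.987 to 3.44), and 1 was lower, the composite region upstream of Id2 at 0.640. After division by the median 0 of the 10 were higher and 3 lower. The 2 regions of Id1 were at 1.33 (0.762 to 2.32) upstream and 0.847 (0.467 to 1.51) at the TSS, and the TSS region of Id3 was at 0.994 (0.561 to 1.75). The unscaled intervals of all 10 held 1. The ratio of the promoter medians was 1.27, and of the 10 upper limits only that of the composite region of Id2, 1.10, lay below it. The scaled interval of that region thus lay below 1, at a scaled ratio of 0.503. For single promoter regions, the share over all genes was not counted.

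The comparison of D6 siH3.3 with D6 siNT addressed whether loss of H3.3 before induction altered accessibility at day 6. Of the 7 promoters, 0 were at least 1.5-fold higher with siH3.3 (7.08% of genes) and 1 was lower (4.68% of genes). That was Smad1, with 0.803 CPM in D6 siH3.3 and 1.24 CPM in D6 siNT, a ratio of 0.648 (0.321 to 1.26). The other ratios were 0.891 at Bmpr1a (0.530 to 1.48), 0.913 at Smad5 (0.464 to 1.77), 1.17 at Id1 (0.643 to 2.12), 1.17 at Id2 (0.704 to 1.94), 1.00 at Id3 (0.555 to 1.79) and 0.860 at Id4 (0.508 to 1.44). At Id3 this set the TSS region in D6 siH3.3 against the upstream region in D6 siNT, and the ratio was 1.27 (0.684 to 2.38) for the TSS region alone and 0.917 (0.500 to 1.66) for the upstream one. At Id1 it was the region 1.06 kb upstream in both, and the TSS region was at 0.530 (0.224 to 1.17). Region by region, 0 of the 10 promoter regions called in both were at least 1.5-fold higher with siH3.3. Lower were 2, that of Smad1 and the TSS region of Id1, before and after division by the promoter median. The share over all genes was not counted for single regions. The highest levels in D6 siH3.3 and D6 siNT were 1.55 and 1.74 CPM at Bmpr1a, 0.964 and 1.06 CPM at Smad5, 1.34 and 1.15 CPM at Id1, 1.82 and 1.56 CPM at Id2, 1.29 CPM in both at Id3, and 1.5 and 1.74 CPM at Id4. Scaled by the promoter median, Smad1 was again the 1 gene past 1.5-fold, at 0.617, against 7.03% of genes lower and 4.81% higher. The counts were 15 to 38 tags per promoter, no interval excluded 1, and each left room for differences in both directions. Counted by summits before the TSS alone, Smad1 had no ratio, since its summits lay 60 and 121 bp inside the gene.

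Across the 8 loci, 20 regions were called in both siRNA libraries, with ratios from 0.530 (Id1 at the TSS) to 1.63 (the composite region of Id1, 0.803 to 3.41) and a median of 0.917. Not 1 of the 20 intervals excluded 1. Only in D6 siH3.3 was a Bmpr1a intronic region called, 31.5 kb past the TSS. Only in D6 siNT were 4 regions called: those 12.1, 7.90 and 6.40 kb upstream of Id1, at 0.551, 0.505 and 0.735 CPM, and the Id3 region 3.39 kb past the TSS, at 0.597 CPM. The lowest level called in D6 siH3.3 was 0.429 CPM, below all 4 of these levels. The 4 rested on 11 to 16 tags and the Bmpr1a region on 9, and the lowest call in D6 siH3.3 was 8 tags. The share of all regions called in only 1 of these libraries was not counted. The intronic region of Bmp4 was at 0.911 CPM with siH3.3 and 0.597 CPM with siNT, a ratio of 1.53 (0.698 to 3.42).

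The untreated D6T- library was labelled with the same day and sort as D6 siNT, and its level was higher throughout. All 7 promoters were at least 1.5-fold higher at D6T-, as were 96.2% of genes (0.0654% were lower), and the ratio of the promoter medians was 2.78. At Id3 this compared different regions, and region by region the ratio was 3.98 (2.47 to 6.68) at the TSS and 2.76 (1.77 to 4.43) upstream. After that division, 1 of the 7 was lower, Bmpr1a at 0.549 (0.358 to 0.850), against 11.3% of genes, and 0 were higher, against 6.08%. D6T- had 40 regions at the 8 loci that D6 siNT lacked, and D6 siNT had 0 that D6T- lacked. Genome-wide, D6T- had 133132 regions and D6 siNT 46481, and the share of all regions called in only 1 of them was not counted. Values of D6T- and of the siRNA pair are therefore read within their own series.

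The genes whose scaled log2 promoter level was most like that of one of the 8 genes over the 9 libraries were taken from the 9818 genes open in all of them. They were Rbm33 (r = 0.98), Dyrk1a (0.92) and Calm3 (0.91) for Bmpr1a, Gm17296, Psma3 and Flot1 for Smad1 (0.92 to 0.93), and 1810029B16Rik (0.98), Creb3l2 and Mapk8ip2 (both 0.94) for Smad5. For Id1 they were Taf13 (0.93), Tead4 (0.90) and Dennd2a (0.88), for Id2 Sdcbp, Ephb4 and Ropn1l (all 0.92), for Id3 2310016M24Rik (0.91), Tax1bp1 (0.90) and Eif4a2 (0.89), and for Id4 Sphk2, Rpl18 (both 0.96) and Oscar (0.94). None of the 8 was among the 3 nearest of another. Between them, the highest correlation was 0.60 (Smad1 with Id3) and the lowest was -0.80 (Bmpr1a with Id1). These values rest on 9 libraries of different depth and counting noise, were the extremes of many, and are descriptions.

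Of the other genes of the pathway, 30 were read in the same way: 7 ligands, 5 receptors, 2 Smads, 13 inhibitors and 3 E proteins. A promoter region was called in all 9 libraries for 18 of the 30 (against 43.9% of all protein-coding genes) and in none for 1, the ligand gene Bmp5. All 5 receptor genes, Bmpr1b, Bmpr2, Acvr1, Acvr2a and Acvr2b, were open throughout, as Bmpr1a was. Of the ligand genes, Bmp6 and Bmp7 were open in all 9 libraries (2 of 7), Bmp2 in 8, Gdf5 and Gdf6 in 6 each and Bmp3 in 1. In iPSCs over D0, 13 of the 23 genes with both values (56.5%) were at least 1.5-fold higher and 0 were lower, against 31.6% and 4.16% of all genes, with a median of 1.56 against 1.26 over all genes. After division by the promoter median 8 were higher and 2 lower, against 12.9% and 13% of all genes. The 2 lower were Smad4, the partner of Smad1 and Smad5, from 1.58 CPM at D0 to 1.20 CPM in iPSCs, and Smad9, from 1.01 to 0.677 CPM. Their unscaled intervals, 0.474 to 1.21 and 0.355 to 1.23, held 1. Both upper limits lay below the ratio of the promoter medians, 1.27. The intervals of the scaled ratios, 0.6 and 0.527, thus lay below 1. The largest ratios were 3.42 at Bmp6 (1.86 to 6.63), 3.31 at Smurf1 (2.11 to 5.35), a ubiquitin ligase that targets Smad1 and Smad5, and 3.01 at Bmpr1b (1.83 to 5.11). In D3 over D0, 18 of 23 (78.3%) were higher and 0 lower, near the 81.5% and 0.763% of all genes, and after division by the median 1 was higher (4.35%, against 8.18%) and 6 lower (26.1%, against 22.3%). With siH3.3 over siNT, 1 of 23 was higher (4.35%, against 7.08% of all genes), Acvr2b at 1.82 (1.09 to 3.06). In the same comparison 2 were lower (8.70%, against 4.68%), Smurf1 at 0.609 (0.276 to 1.27) and the BMP-binding protein gene Twsg1 at 0.656 (0.347 to 1.21).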

How the data were processed

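ATAC-Seq of 9 mouse libraries, 1 per condition, was analysed, with conditions taken from the labels. The authors mapped reads of 51 bp with STAR to mm9, removed duplicates with Picard, removed mitochondrial reads and called peaks with MACS2 2.1.0.20151222 (q-value cutoff 0.05, no control, no local background). The deposited pileup is a signal, unscaled for depth. The deposited fold enrichment is a ratio over an even spread of the tags across the genome, and the deposited −log10 q-value gives its significance. Summits of a peak were joined and overlapping peaks merged per library, then across libraries. Gene models were those of GENCODE vM1 (mm9), and a region belonged to a promoter if it shared at least 1 bp. The highest summit pileup was scaled to 1000000 tags (CPM). With no replicates no test was run. A ratio of 1.5 was called, beside its 95% interval and the share of all genes past it. Named were all members, pathway genes left by counts of 5 or fewer or with the largest ratios, and the 3 genes most like each member. Sequences were read from NCBIM37 (mm9). Members and lists were chosen with earlier results of these data known. Alternatives were other promoter windows, TSS choices, flanks, peak thresholds and scalings. Python 3.11.15, numpy 2.4.6, pandas 2.3.3, scipy 1.17.1 and matplotlib 3.10.9 were used, and the functions were tested on simulated data.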

Additional observations from a re-analysis of the deposited data

How the results depend on the processing

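Of 263 recomputed values, 229 kept their direction and size within the limits used, which were 1.5 times for a count and the 95% counting interval for a ratio. The number of members with a promoter region, in each library and in all 9, stayed within 1.5 times under every alternative run. Division by the promoter median took the members at least 1.5-fold higher in D3 over D0 from 7 to 1, raised those lower in iPSCs over D0 from 0 to 1, and turned 5 ratios of D3 over D0 below 1: Smad1 0.856, Smad5 0.757, Id1 0.729, Id3 0.870 and Id4 0.919. By construction it removes the difference in general level. With summits inside the promoter alone, the members lower in D6 siH3.3 over D6 siNT went from 1 to 0, since Smad1 then had no value. The regions at the 8 loci numbered 170 with 50 kb flanks, 41 with the stronger 50% of the peaks and 41 with the 39680 strongest peaks, since more bases or fewer peaks were read. In alternatives chosen after seeing the data, 81 regions were left without D6T- and 93 without D9T-, and the composite was in 3 regions within 200 bp. Among them too, a Bmp4 promoter region was left in 1 library (iPSCs) with the stronger 50% of the peaks, and in D16S+ and iPSCs with the 39680 strongest peaks of each library, and with each promoter region compared with itself the D3 over D0 ratio of Id1 was 0.914 at the TSS, against 2.02 upstream. Depth limits low sites: 9 to 17 tags stood behind the Bmp4 promoter.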
